A study of Mus musculus with 36 samples.

Results

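Untreated bone marrow-derived macrophages were compared with 3 other primary mouse cell cultures that received the same control treatment. The members are the 3 control macrophage libraries of a table of 36 RNA-seq libraries, set against the 3 control libraries each of adipocytes, myotubes and hepatocytes, so that 12 libraries enter the results. The study as a whole exposed these cell types to short-chain fatty acids and ketone bodies, and all treated libraries are left out of the main comparisons. All 4 control groups are labelled C57Bl/6 and received PBS for 6 h, and the study's methods name C57BL/6NHsd mice for the hepatocytes.

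The macrophages were grown from femoral bone marrow in medium conditioned by L929 fibroblasts, a source of the growth factor CSF1. The adipocytes were differentiated from stromal cells of inguinal fat pooled from several male mice, the myotubes from hindlimb myoblasts, and the hepatocytes were isolated by liver perfusion. Adipocytes and macrophages were treated in DMEM with serum, myotubes in their differentiation medium and hepatocytes in Williams E medium, so treatment medium and cell type cannot be told apart against myotubes and hepatocytes, nor can substrain and cell type against hepatocytes. Culture before treatment also differed, as the adipocytes were differentiated with dexamethasone, insulin and rosiglitazone. Culture history and cell type therefore cannot be told apart in any comparison. The sources do not say that the 3 libraries of a group came from separate animals, and P-values then measure only the spread between these libraries, which may be technical. The biological coefficient of variation was 0.0286 among the macrophage libraries and 0.0789 to 0.0836 in the other groups, so the macrophage libraries were the most alike.

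Macrophages are phagocytes of the myeloid lineage. Their survival and growth depend on CSF1 and its receptor, and the transcription factor PU.1, encoded by Spi1, directs much of their gene programme. They take up particles through Fc, complement and scavenger receptors, digest them in lysosomes, and detect microbes with Toll-like receptors. Bone marrow macrophages in CSF1 are a widely used culture model because they are fairly uniform and still divide.

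The label was first checked against 4 markers. Lyz2, the myeloid lysozyme that digests bacterial walls, stood at 12302, 12579 and 12348 CPM (read counts relative to library size after scaling by the trimmed mean of M-values, TMM) in the 3 macrophage libraries. It stood at 136, 173 and 181 CPM in adipocytes, at 156, 120.1 and 66.0 CPM in myotubes, and at 3.13, 3.46 and 2.33 CPM in hepatocytes. The groups did not overlap, and the mean of 12410 ± 149 CPM (SD, n = 3) in macrophages was 76.0-fold, 109-fold and 4172-fold that of adipocytes, myotubes and hepatocytes. Csf1r, the CSF1 receptor, stood at 1426, 1386 and 1372 CPM in macrophages, against 46.2 to 48.2 CPM in adipocytes, 14.2 to 45.4 CPM in myotubes and 1.14 to 1.91 CPM in hepatocytes. Mpeg1, a pore-forming protein of phagocytes, was at 3697 ± 47.2 CPM (SD, n = 3) in macrophages and at 80.0, 96.5 and 62.8 CPM in adipocytes, myotubes and hepatocytes. Ctss, the lysosomal protease cathepsin S, was at 3145 ± 13.2 CPM (SD, n = 3) in macrophages and at 45.2, 42.1 and 1.63 CPM in the same order. All 4 were higher in macrophages in every comparison, with log2 fold changes of 4.88 to 12.03 and a largest adjusted P of 4.35e-10 (edgeR quasi-likelihood test with Benjamini-Hochberg adjustment), for Csf1r against adipocytes.

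The 250 bases before the start site of 3 of these markers are shown because their levels set the macrophage libraries most plainly apart. They were taken from RefSeq on GRCm38.p6 and read 5′ to 3′ on the strand of the gene. Capitals mark any of 3 motifs, searched on both strands. The letters GAGGAAG occur in the site bound by PU.1, the letters TATAAA mark the promoter element bound by the TATA-binding protein, and the letters CCAAT occur in the site bound by NF-Y. The windows lie at chr10:117282273-117282522 (minus strand) for Lyz2, chr19:12460520-12460769 (plus strand) for Mpeg1 and chr3:95526536-95526785 (plus strand) for Ctss. The Lyz2 window holds none of the 3 motifs, that of Mpeg1 holds CCAAT, and that of Ctss holds TATAAA on the opposite strand.
Lyz2: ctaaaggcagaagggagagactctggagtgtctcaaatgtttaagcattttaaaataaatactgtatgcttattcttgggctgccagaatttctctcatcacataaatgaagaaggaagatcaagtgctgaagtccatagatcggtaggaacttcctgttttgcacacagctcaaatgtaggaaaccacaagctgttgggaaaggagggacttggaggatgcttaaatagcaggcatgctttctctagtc
Mpeg1: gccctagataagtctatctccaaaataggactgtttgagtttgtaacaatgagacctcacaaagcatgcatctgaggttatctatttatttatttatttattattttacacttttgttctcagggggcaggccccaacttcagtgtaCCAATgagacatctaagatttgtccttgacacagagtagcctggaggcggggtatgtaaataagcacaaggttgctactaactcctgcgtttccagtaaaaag
Ctss: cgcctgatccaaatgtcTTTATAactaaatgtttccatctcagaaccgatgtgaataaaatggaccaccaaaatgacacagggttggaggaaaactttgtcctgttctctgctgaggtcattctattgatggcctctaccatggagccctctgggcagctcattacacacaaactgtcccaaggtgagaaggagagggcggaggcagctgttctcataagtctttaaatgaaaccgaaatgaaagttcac

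A longer list of 12 macrophage markers showed how much of this signal the other cultures held. Its summed level was 23778 to 24169 CPM in the macrophage libraries. As a share of the macrophage mean it was 1.91% ± 0.09 (SD, n = 3) in adipocytes, 1.47% ± 0.67 in myotubes and 1.56% ± 0.06 in hepatocytes. The myotube libraries were unequal, at 2.05%, 1.62% and 0.737%, and the lowest value belonged to the same library that was lowest for each of the 4 markers. The list of 12 includes those 4, so this is not a separate observation. In hepatocytes most of the sum came from 3 genes: Cd14, the co-receptor for bacterial lipopolysaccharide, at 206 CPM, the lysosomal glycoprotein gene Cd68 at 90.8 CPM and Mpeg1 at 62.8 CPM. Cd14, at 343 ± 18.4 CPM (SD, n = 3) in macrophages, did not overlap with hepatocytes but was the only one of the 12 markers that was not called higher in all 3 comparisons, at a log2 fold change beyond 1. In bulk libraries, few macrophages in a culture and a low level per cell cannot be told apart.

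**Figure D1:**
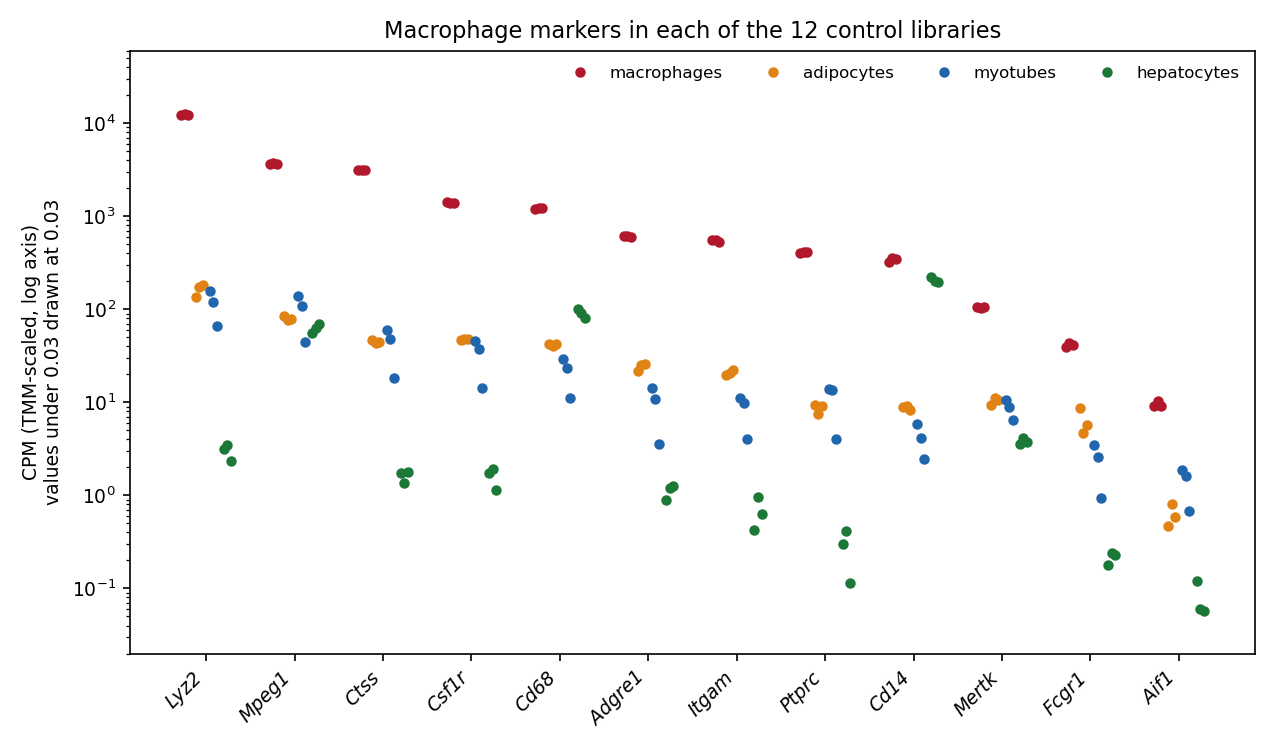
Levels of macrophage markers in the 12 control libraries, in TMM-scaled CPM on a log axis with values under 0.03 drawn at 0.03. Each point is 1 library. The macrophage points lie above those of the other groups for every marker, and for Cd14 the hepatocyte points at 198 to 219.7 CPM come nearest to the macrophage points at 323 to 359 CPM.

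Across 14951 genes that passed the filter of more than 1 CPM in at least 3 of the 12 libraries, 2714 (18.2%) were higher and 3417 (22.9%) lower in macrophages than in adipocytes, at an adjusted P below 0.05 and a log2 fold change beyond 1. Against myotubes 3258 (21.8%) were higher and 3915 (26.2%) lower, and against hepatocytes 4007 (26.8%) were higher and 3392 (22.7%) lower. The 3 comparisons share the macrophage libraries and are not independent. Genes higher in all 3 are called macrophage-high here, and there were 1500 (10.0%), of which 1394 are protein-coding. Genes lower in all 3 are called macrophage-low, and there were 889 (5.95%). The margin of a gene is its log2 fold change nearest to 0 among the 3, and its median was 2.24 over the macrophage-high and -1.88 over the macrophage-low genes. A margin beyond 3 was reached by 528 macrophage-high and 234 macrophage-low genes. The filter let in 214 genes through the macrophage libraries alone, which therefore had to differ, and 207 of these are among the macrophage-high genes.

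Most macrophage-high genes were above 0 in each other group. Their median level, as a percentage of that in macrophages, was 14.0% in adipocytes, 11.2% in myotubes and 5.59% in hepatocytes. Of the 1163 macrophage-high genes at 10 CPM or more, 334 stood below 1% of the macrophage level in hepatocytes, but only 22 in adipocytes and 23 in myotubes. Between 1% and 3%, the range in which the summed markers lay in adipocytes, stood 108 genes in adipocytes and 152 in myotubes. The part that macrophages within the adipocyte and myotube cultures had in these levels was not tested.

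**Figure D2:**
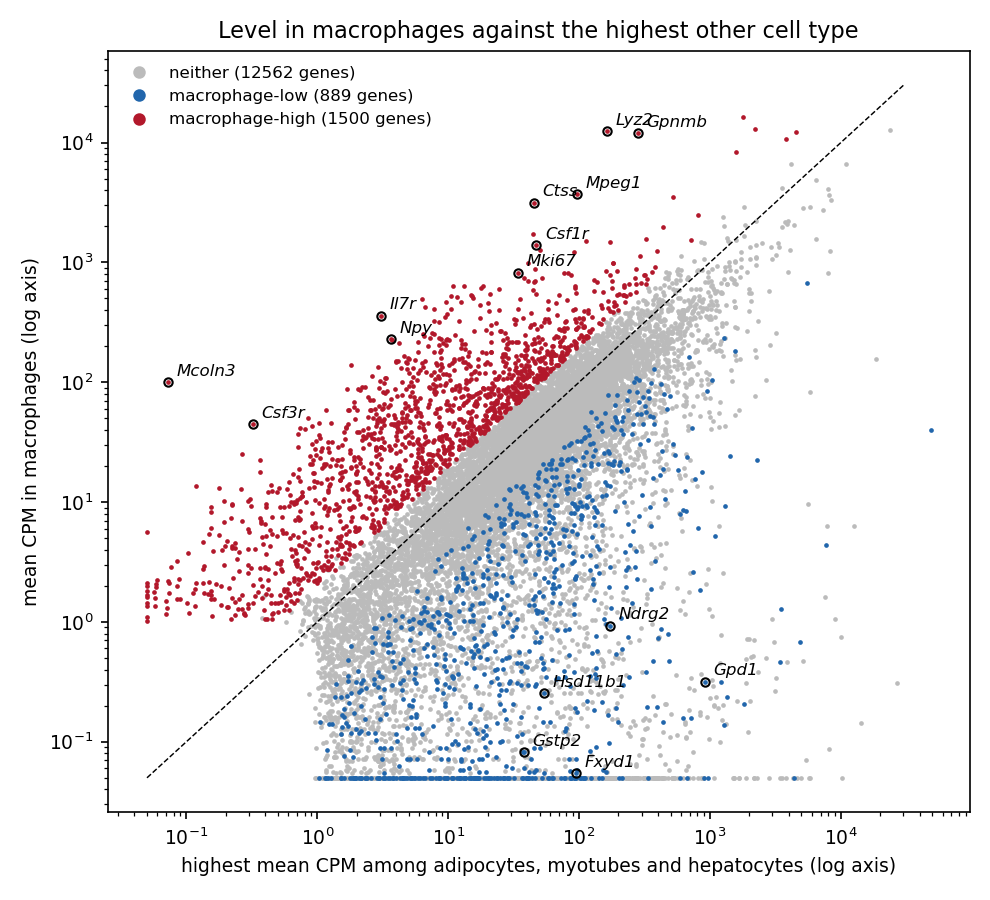
Mean level in macrophages (vertical, CPM, log axis) against the highest mean among adipocytes, myotubes and hepatocytes (horizontal, CPM, log axis) for each tested gene, with equal levels on the dashed line. The 1500 macrophage-high genes lie above the line and the 889 macrophage-low genes below it.

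By margin, the leading gene was Mcoln3, which encodes a cation channel of endosomes and lysosomes. It stood at 98.4, 102 and 100.3 CPM in macrophages, rested on 2 counts in all adipocyte and 5 counts in all myotube libraries, and had none in hepatocytes. Its level was at least 1699-fold higher than in hepatocytes, from the floor of 3 counts over the group. Il7r, the interleukin-7 receptor chain best known from lymphocytes, stood at 346, 363 and 367 CPM in macrophages, 1.70 to 3.73 CPM in adipocytes and 0.945 to 4.56 CPM in myotubes. No count of Il7r was seen in hepatocytes, so its level was at least 6091-fold higher in macrophages. Csf3r, the receptor for the granulocyte growth factor G-CSF, stood at 44.7 ± 1.03 CPM (SD, n = 3) in macrophages and at or below 0.410 CPM in each other library. Mcoln3 and Csf3r passed the filter through the macrophage libraries alone, so a higher level there was fixed in advance.

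The other leading genes were of several kinds. Clec4d, a C-type lectin that binds mycobacterial glycolipid, was at 494 ± 18.8 CPM (SD, n = 3) in macrophages and at 6.36, 2.64 and 0.333 CPM in adipocytes, myotubes and hepatocytes. Plxnc1, a semaphorin receptor, was at 425 ± 4.01 CPM against 5.00, 6.64 and 0.840 CPM. Cd200r4, a receptor of the CD200R family, was at 139 ± 3.84 CPM and was not counted in hepatocytes.

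Npy encodes neuropeptide Y, a transmitter best known from neurons, and stood at 224, 227 and 233 CPM in macrophages but at or below 4.16 CPM in each other library. Tnn, which encodes the matrix protein tenascin-N, was at 22.4 ± 1.55 CPM in macrophages and at 0.365 and 0.146 CPM in adipocytes and myotubes. It too passed the filter through the macrophage libraries alone. Cd5l, a secreted scavenger receptor protein of tissue macrophages, was at 227 ± 5.60 CPM in macrophages and at 3.70, 0.0873 and 3.31 CPM in the other groups.

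Per kilobase of exon, Lyz2 was the most abundant protein-coding transcript of macrophages at 9430 CPM per kb. It was followed by mt-Co1, a mitochondrial oxidase subunit, at 8267, by the ferritin light chain Ftl1 at 7948 and by the lysosomal protease gene Ctsd at 7009 CPM per kb. Spp1, the secreted phosphoprotein osteopontin, reached 4035, the ferritin heavy chain Fth1 3526 and Psap, the precursor of the saposins that assist lipid breakdown, 3036 CPM per kb. With the length of the longest transcript in place of all exons, Ftl1 came first at 11002 CPM per kb. Ferritin is the iron store of the cell, and both of its chain genes were macrophage-high, Ftl1 by 4.91-fold, 16.8-fold and 2.80-fold over adipocytes, myotubes and hepatocytes. Spp1 was not, because myotubes held 4143 ± 318 CPM (SD, n = 3) against 6650.2 ± 192 CPM in macrophages.

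Of 22 tested lineage transcription factors, 12 (54.5%) were macrophage-high and none was macrophage-low, beside 10.0% and 5.95% over all tested genes. Spi1 stood at 223, 229 and 221 CPM in macrophages, 12.0 to 12.9 CPM in adipocytes, 2.23 to 8.39 CPM in myotubes and 0.239 to 0.482 CPM in hepatocytes, with a margin of 4.17. Lyl1, a helix-loop-helix factor of blood progenitors, had the largest margin of the list at 5.04, with 32.6 ± 1.56 CPM (SD, n = 3) in macrophages. Irf8, which directs monocyte and macrophage development, was at 119 ± 3.21 CPM against 5.01, 3.92 and 2.80 CPM in adipocytes, myotubes and hepatocytes. The list did not move as a whole. Cebpa, a factor that myeloid cells share with fat and liver, was at 295 ± 8.66 CPM in macrophages and at 378 ± 9.91 CPM in adipocytes, and Pparg, the adipogenic nuclear receptor, was 7.75-fold lower in macrophages than in adipocytes yet 21.7-fold higher than in myotubes.

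The receptors for growth factors and cytokines gave 11 macrophage-high genes of 21 tested (52.4%, beside 10.0% over all genes). Csf3r among them passed the filter through the macrophage libraries alone. After Csf3r, the largest margins were those of Csf2rb and Csf2rb2, 2 neighbouring and closely related genes. The first encodes the beta chain shared by the GM-CSF, IL-3 and IL-5 receptors, and the second the beta chain specific to IL-3. Csf2rb stood at 459, 488 and 467 CPM and Csf2rb2 at 509, 527 and 528 CPM in macrophages, and how reads divide between such similar genes is uncertain. Both were at or below 13.9 CPM in each library of the other groups. Il10ra, the ligand-binding chain of the IL-10 receptor, was at 62.4 ± 1.49 CPM (SD, n = 3) against 1.63, 1.90 and 0.0985 CPM. The 10 receptors outside the call include the interferon receptor chains Ifngr1, Ifngr2, Ifnar1 and Ifnar2.

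Surface, adhesion and motility proteins of leukocytes were macrophage-high in 35 of 39 tested genes (89.7%), against 10.0% of all genes. Their median log2 fold changes were 4.76, 5.06 and 8.85 over adipocytes, myotubes and hepatocytes, where the medians over all genes were -0.01, -0.05 and 0.01. Ptprc, the leukocyte phosphatase CD45, stood at 404, 409.9 and 413 CPM in macrophages and at 8.64, 10.4 and 0.277 CPM in the other groups. Itgb2, the beta chain of the leukocyte integrins, stood at 538 ± 11.3 CPM (SD, n = 3) against 15.1 CPM in adipocytes, 9.43 CPM in myotubes and 1.01 to 1.32 CPM in hepatocytes. Slamf7, a self-binding receptor of the SLAM family, had the largest margin at 5.79, with 41.5 ± 2.78 CPM in macrophages. Ms4a7, a membrane protein of the MS4A family, followed at 5.72, with 405 ± 7.45 CPM, and the tetraspanin gene Cd37 at 5.71, with 88.6 ± 0.163 CPM. The exceptions were Itga4, Lsp1, Adgre5 and Emb, each of which missed the call in at least 1 comparison.

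Many proteins of cell signalling and movement exist in a form typical of leukocytes and a relative found in most cells, and 23 such pairs were compared. The leukocyte member was macrophage-high in 21 pairs and the wide member in 1, where 10.0% of all genes were. The pairs were chosen for a member typical of leukocytes, so this count is not an independent result. Per kilobase, the leukocyte member exceeded its relative in 15 pairs in macrophages, 2 in adipocytes, 1 in myotubes and 0 in hepatocytes. The median share of the leukocyte member in the pair was 74.0% in macrophages, 7.77% in adipocytes, 6.17% in myotubes and 0.548% in hepatocytes.

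In 4 pairs the leukocyte member was macrophage-high and the wide member macrophage-low, where 5.95% of all genes were. Nckap1l and Nckap1 encode alternative subunits of the WAVE complex, which drives branched actin growth. Nckap1l stood at 605, 620.5 and 617 CPM in macrophages and at 17.9, 12.5 and 0.670 CPM in adipocytes, myotubes and hepatocytes. Nckap1 ran the other way, at 58.5, 51.0 and 48.6 CPM in macrophages and at 279, 277 and 349.6 CPM in the other groups. The cortactin relatives Hcls1 and Cttn showed the same pattern, with Hcls1 at 232 ± 3.18 CPM (SD, n = 3) and Cttn at 44.5 ± 2.52 CPM in macrophages while Cttn was at 144 CPM or more in the other groups. The remaining pairs of this kind were Plcg2 with Plcg1, both phospholipases C gamma, and Cybb with Nox4, both NADPH oxidase subunits, where the margins of Plcg1 and Nox4 were -1.08 and -1.03. Both lie near the threshold: scaled by library totals alone, Plcg1 differed from hepatocytes by -0.86, and without the second or the third adipocyte or the second macrophage library Nox4 differed from adipocytes by -0.99 to -0.93. Cybb was already the larger member of its pair in adipocytes and myotubes, at 81.8% and 60.3% against 99.7% in macrophages.

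The wide members of Ptpn6, Was, Fermt3 and Lcp1 were also lower in all 3 comparisons without reaching the call, with log2 fold changes of -0.85 to -1.24 for Ptpn11, -0.66 to -2.10 for Wasl, -0.89 to -1.76 for Fermt2 and -0.37 to -1.22 for Pls3. Rac1, a GTPase of actin movement, was instead at 454 ± 7.46 CPM (SD, n = 3) in macrophages and at 333, 282 and 413 CPM in the other groups, while its relative Rac2 was at 144 ± 1.94 CPM in macrophages and at 6.34, 5.17 and 0.633 CPM elsewhere. In hepatocytes, Lcp1, an actin-bundling plastin, was the leukocyte member with the largest share, at 41.3% of its pair. Rhoh and Apbb1ip were the leukocyte members outside the call, and Rhoh was at 5.37 ± 0.214 CPM in macrophages and 10.3 ± 0.563 CPM in myotubes.

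**Figure D3:**
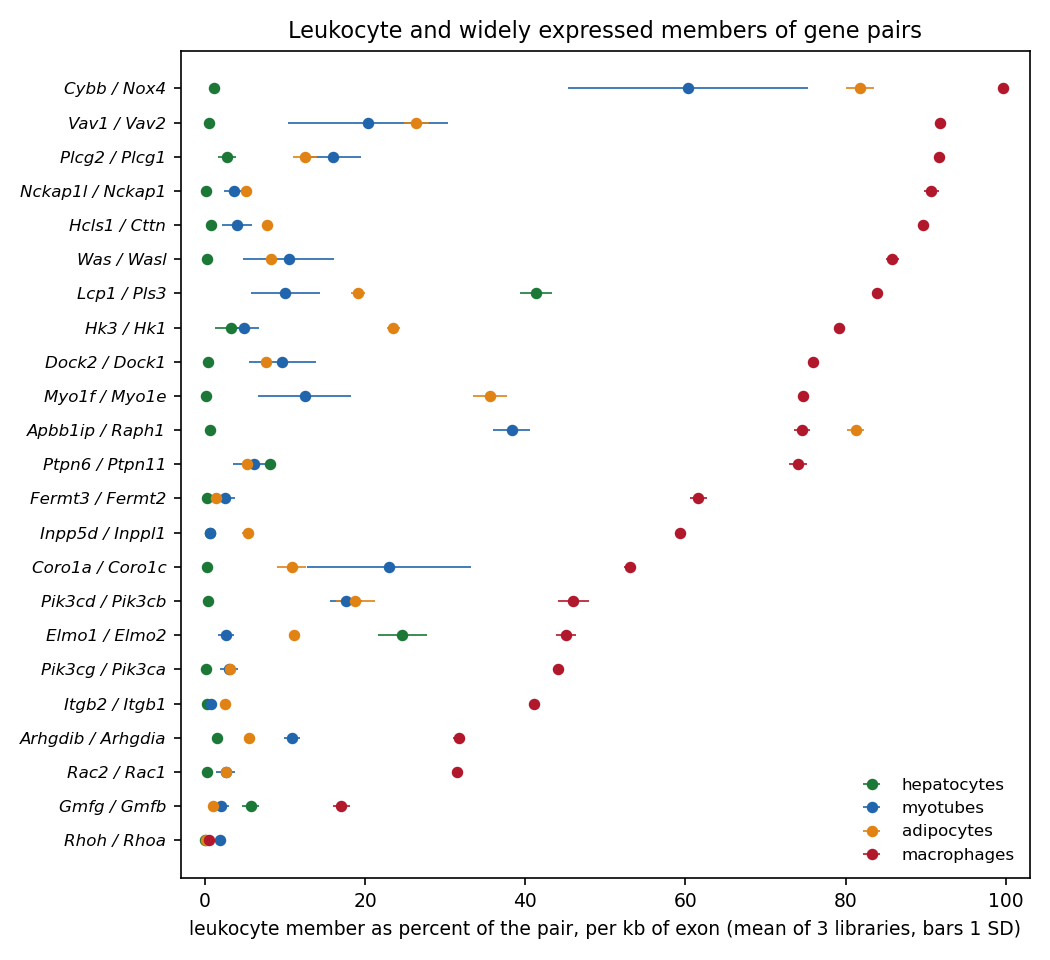
Share of the leukocyte member in each of 23 gene pairs, in percent of the summed level per kilobase of exon. Points are means of 3 libraries and bars are 1 SD. The median over pairs was 74.0% in macrophages and 0.548% in hepatocytes. The macrophage point is not the rightmost for Rhoh and Apbb1ip, and the hepatocyte point is not the leftmost for several pairs, among them Lcp1 and Elmo1.

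Receptors for antibody and their signalling partners were macrophage-high in 25 of 27 tested genes (92.6%), against 10.0% of all genes. Fcer1g and Tyrobp encode small adaptors whose ITAM motifs recruit the kinase SYK. Tyrobp stood at 639, 632 and 641 CPM in macrophages and at 11.4, 13.2 and 0.391 CPM in adipocytes, myotubes and hepatocytes. Fcer1g stood at 523 ± 14.2 CPM (SD, n = 3) against 15.2 CPM in adipocytes, 14.7 CPM in myotubes and 0.854 to 1.75 CPM in hepatocytes, and Syk at 353 ± 11.6 CPM against 8.14, 9.43 and 0.959 CPM. Trem2, a lipid receptor that signals through TYROBP, was at 518 ± 5.93 CPM against 11.7, 5.74 and 0.137 CPM, and Blnk, an adaptor downstream of SYK, at 133 ± 3.13 CPM against 2.01, 2.88 and 1.72 CPM. Outside the call were Fgr, at 1.34 CPM in macrophages, and Siglec1, whose log2 fold change over adipocytes was 0.98.

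All 6 components of the phagocyte NADPH oxidase, the enzyme of the respiratory burst, were macrophage-high, against 10.0% of all genes. Its catalytic subunit gene Cybb stood at 628, 668 and 623 CPM in macrophages, 16.8 to 19.6 CPM in adipocytes, 5.93 to 22.0 CPM in myotubes and 1.01 to 1.26 CPM in hepatocytes. The sum of the 6 genes was 1663 to 1720 CPM in macrophages and 2.33 to 3.55 CPM in hepatocytes.

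Of the Toll-like receptors and other innate sensors, 15 of 32 tested genes (46.9%) were macrophage-high, beside 10.0% over all genes. Among those with the largest margins were receptors of endosomes that read nucleic acids. Tlr8 stood at 215, 216 and 216 CPM in macrophages and at 5.46, 5.84 and 0.120 CPM in adipocytes, myotubes and hepatocytes, and Tlr13, which reads bacterial ribosomal RNA, at 506 ± 9.59 CPM (SD, n = 3) against 15.4, 6.69 and 0.410 CPM. Ticam2, the adaptor that couples TLR4 to the interferon branch, was at 40.5 ± 0.706 CPM against 0.447 and 0.799 CPM in adipocytes and myotubes, with 1 count in hepatocytes. The general adaptors and kinases of the pathway were outside the call, among them Myd88, Tirap, Irak1 and Irak4.

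The inflammasome list gave 7 macrophage-high genes of 19 tested (36.8%, beside 10.0% over all genes). Naip5, a receptor for bacterial flagellin, stood at 38.9, 36.4 and 35.9 CPM in macrophages and at or below 1.00 CPM in each other library, and reads may be shared between Naip5 and its relative Naip6. Alox5ap, the activating protein of leukotriene synthesis, was at 253 ± 5.36 CPM (SD, n = 3) against 7.73, 3.36 and 0.119 CPM in adipocytes, myotubes and hepatocytes. Its enzyme partner Alox5 was instead at 0.699 ± 0.261 CPM in macrophages and at 50.8 ± 5.84 CPM in myotubes. Inflammatory products were low in these untreated cells. Among cytokines, Tnf stood at 5.10 ± 0.713 CPM, Il1b at 1.03 ± 0.255 CPM, Il10 rested on 2 counts and Il12a had none. Nos2, the inducible nitric oxide synthase, had no count.

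Lysosomal proteins had the highest summed level in macrophages of the 33 gene lists. The 44 listed genes summed to 88260 to 90260 CPM in the macrophage libraries, 12370 to 12800 CPM in adipocytes, 6546 to 8115 CPM in myotubes and 9884 to 10230 CPM in hepatocytes. Of the 44 genes, 27 (61.4%) were macrophage-high and none was macrophage-low, beside 10.0% and 5.95% over all genes, with median log2 fold changes of 2.26, 2.70 and 1.94. Ctsd, cathepsin D, was at 16538, 16368 and 16528 CPM in macrophages and at 1783, 1284 and 869 CPM in adipocytes, myotubes and hepatocytes. Gpnmb, a lysosomal membrane glycoprotein of phagocytes, was at 11991 ± 375 CPM (SD, n = 3) in macrophages and 42.8-fold to 283-fold lower in the other groups. Atp6v0d2, a proton pump subunit known from osteoclasts and macrophages, was at 253 ± 12.7 CPM against 3.05, 6.43 and 1.32 CPM. Lyz1 was called as well, but at 1.49 CPM it is far below its close relative Lyz2, with which reads may be shared, and its level is uncertain.

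Lamp1, the main protein of the lysosomal membrane, was at 2011 ± 38.8 CPM (SD, n = 3) in macrophages and at 767, 734 and 1284 CPM in the other groups, with log2 fold changes of 1.39, 1.45 and 0.65. Cd63, a lysosomal tetraspanin, had log2 fold changes of 0.76, 0.87 and 1.31. Lipa, the lysosomal acid lipase, was at 1490.3 ± 28.1 CPM against 173, 51.3 and 167 CPM, and was macrophage-high. Slc11a1, a metal ion exporter of the phagosome, was at 186 ± 1.75 CPM against 5.68, 2.88 and 8.80 CPM, and was macrophage-high as well.

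Of 22 complement genes and receptors, 10 (45.5%) were macrophage-high and 1 (4.55%) macrophage-low, beside 10.0% and 5.95% over all genes, and 10 were lower than in adipocytes, where 22.9% of all genes were. The 3 chains of C1q, which binds antibody and dying cells, were macrophage-high, with C1qb at 885, 889 and 874 CPM in macrophages and at 45.9, 38.9 and 2.09 CPM in adipocytes, myotubes and hepatocytes. So were the receptors C3ar1, C5ar1 and C5ar2, and C3ar1 stood at 997 ± 18.2 CPM (SD, n = 3) against 40.9, 13.7 and 0.851 CPM. The plasma component C3 was at 9.66 ± 0.00747 CPM in macrophages, 1260.4 ± 81.4 CPM in adipocytes and 5565 ± 752 CPM in hepatocytes. C5, listed as Hc, rested on 2 counts in macrophages and was macrophage-low.

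Scavenger receptors and cholesterol genes gave 7 macrophage-high genes of 26 tested (26.9%, beside 10.0% over all genes). Besides Cd5l these included Nceh1, a cholesteryl ester hydrolase, at 695, 719.8 and 699 CPM in macrophages and at 14.4, 39.3 and 41.1 CPM in adipocytes, myotubes and hepatocytes. Soat1, the enzyme that forms cholesteryl ester, was at 792 ± 11.9 CPM (SD, n = 3) against 87.2, 65.5 and 1.24 CPM. Stab1, an endocytic receptor, was at 499 ± 14.2 CPM against 35.3, 7.20 and 23.1 CPM. Cd36 and Apoe, both abundant in macrophages, were not particular to them: Cd36 stood at 594 ± 18.9 CPM in macrophages and 1977 ± 87.2 CPM in adipocytes, and Apoe at 4171 ± 94.5 CPM in macrophages and 3527 ± 165 CPM in hepatocytes.

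Of 29 tested chemokine and chemokine receptor genes 12 (41.4%) were macrophage-high and 3 (10.3%) macrophage-low, beside 10.0% and 5.95% over all genes. Cxcr4, the receptor for CXCL12, stood at 369.6, 378 and 364 CPM in macrophages and at 4.11, 9.84 and 1.14 CPM in adipocytes, myotubes and hepatocytes. The chemokine gene Ccl3 was at 20.0 ± 0.282 CPM (SD, n = 3) against 1.97, 0.932 and 0.274 CPM. Ccl2, which attracts monocytes, was macrophage-low at 14.8 ± 0.135 CPM against 74.6, 35.1 and 158 CPM, as were Cxcl1, a neutrophil attractant that rested on 4 counts in macrophages, and the decoy receptor Ackr3 at 0.278 CPM.

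Antigen presentation genes differed mainly from myotubes, over which 17 of 26 tested genes were higher and 1 lower with a median log2 fold change of 2.44, where 21.8% of all genes were higher. Against adipocytes 7 were higher and 5 lower, where 18.2% and 22.9% of all genes were, and against hepatocytes 9 and 5, where 26.8% and 22.7% were. Only H2-DMb1 and Cd86 were macrophage-high, which is 7.69% beside the 10.0% over all genes, and with the libraries treated with the ketone body bOHB in place of the controls there were 6. B2m, the light chain of class I molecules, was at 1069 ± 16.3 CPM (SD, n = 3) in macrophages, 1410.2 ± 35.9 CPM in adipocytes, 159 ± 15.2 CPM in myotubes and 2006 ± 87.8 CPM in hepatocytes. Cd74, the invariant chain of class II molecules, stood at 29.5, 30.5 and 31.3 CPM in macrophages and at 56.8, 47.4 and 6.53 CPM in myotubes, so the myotube libraries lay on both sides of the macrophages. H2-Aa, a class II chain, behaved alike, at 4.79 to 6.08 CPM in macrophages and 1.72 to 13.0 CPM in myotubes.

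Genes induced by interferon were lower in macrophages than in adipocytes in 31 of 36 cases, against 22.9% of all genes. They were lower than in hepatocytes in 21, against 22.7%, and higher than in myotubes in 21, against 21.8%. The median log2 fold changes were -3.28, 1.34 and -1.77 against adipocytes, myotubes and hepatocytes. Irf7, a transcription factor of the interferon response, stood at 3.04, 3.90 and 3.70 CPM in macrophages, 119.8 to 161 CPM in adipocytes, 0.859 to 2.51 CPM in myotubes and 115 to 140.3 CPM in hepatocytes. Ifit1, which binds viral RNA, was at 1.78 ± 0.186 CPM (SD, n = 3) in macrophages and 135 ± 68.2 CPM in adipocytes. Slfn2 was the only macrophage-high gene of the list (2.78%, beside 10.0% over all genes), at 121 ± 6.26 CPM against 22.4, 3.07 and 5.02 CPM. None was macrophage-low, beside 5.95%. The adipocyte libraries were unequal here, with a summed level of 2839 to 4325 CPM, yet all lay above the 644.8 to 723.3 CPM of the macrophages.

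Markers of activation by IL-4 were mostly low or absent. Of 18 listed genes 8 passed the filter, and only Mrc1, the mannose receptor, was macrophage-high, at 125 ± 7.40 CPM (SD, n = 3) against 52.5, 5.35 and 3.55 CPM. This is 12.5%, near the 10.0% over all genes, and 1 gene (12.5%) was macrophage-low, beside 5.95%. Retnla, Mgl2, Pdcd1lg2 and Cd209a had no count in the macrophages, and Chil3 stood at 1.02 ± 0.554 CPM. Of 26 genes that mark macrophages resident in tissues 17 passed the filter, of which 7 (41.2%) were macrophage-high and 2 (11.8%), Lyve1 and Gata6, macrophage-low, beside 10.0% and 5.95% over all genes. The high ones included Cd5l, Folr2 at 79.8 ± 4.28 CPM and P2ry12 at 4.60 ± 0.346 CPM. Timd4, Clec4f, Lyve1, Sall1 and Car4 had no count in the macrophages.

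Cell division separated macrophages from all 3 other cultures, with 31 of 33 listed genes (93.9%) macrophage-high, against 10.0% of all genes. The median log2 fold changes were 2.88, 3.54 and 4.43, and the summed level was 3808 to 3871 CPM in macrophages against 414.2 to 612.7 CPM in adipocytes, 290.6 to 415.3 CPM in myotubes and 342.2 to 414.3 CPM in hepatocytes. Mki67, a protein of the surface of mitotic chromosomes, stood at 810.3, 822 and 829.8 CPM in macrophages, 18.0 to 42.7 CPM in adipocytes, 16.2 to 33.5 CPM in myotubes and 2.45 to 4.33 CPM in hepatocytes. Its log2 fold changes were 4.59 ± 0.28, 5.03 ± 0.29 and 7.92 ± 0.37 (SE), and the adjusted P-values were 1.02e-09, 3.78e-10 and 2.67e-11. Ccnb2, a mitotic cyclin, was at 58.4 ± 0.955 CPM (SD, n = 3) against 2.53, 2.41 and 0.572 CPM, and the spindle motor gene Kif11 at 122 ± 4.51 CPM against 6.82, 5.61 and 1.07 CPM. The members outside the call, Ccne1 and Mcm4, had margins of 0.61 and 1.00.

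The macrophage-low genes were led by Fxyd1, a regulator of the sodium pump. It rested on 4 counts in the 3 macrophage libraries and stood at 92.6 to 97.2 CPM in adipocytes, 30.1, 42.8 and 38.8 CPM in myotubes and 61.5, 64.5 and 49.9 CPM in hepatocytes. Gstp2 rested on 6 counts, all in 1 macrophage library, and was at 32.6, 32.9 and 38.2 CPM in the other groups, and reads may be shared with its relative Gstp1. Hsd11b1, the enzyme that regenerates active glucocorticoid, was at 0.253 ± 0.0888 CPM (SD, n = 3) in macrophages and at 54.0, 23.0 and 52.9 CPM in adipocytes, myotubes and hepatocytes. Gpd1, the glycerol-3-phosphate dehydrogenase of the cytosol, was at 0.317 ± 0.117 CPM against 919, 15.7 and 159 CPM. Ndrg2 was at 0.932 ± 0.160 CPM against 81.6, 58.8 and 173 CPM. In all, 440 of the 889 macrophage-low genes stood below 1 CPM in macrophages.

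Of 33 receptor kinases and related growth factor receptors, 9 were macrophage-low, which is 27.3% beside 5.95% over all genes. Another 1 (3.03%) was macrophage-high, beside 10.0%. Met, the receptor for hepatocyte growth factor, stood at 2.51, 3.06 and 2.06 CPM in macrophages and at 73.9, 32.9 and 141 CPM in adipocytes, myotubes and hepatocytes. Egfr, the EGF receptor, was at 23.9 ± 0.604 CPM (SD, n = 3) against 233, 68.1 and 669 CPM. Insr, the insulin receptor, was at 40.4 ± 2.11 CPM against 184, 90.8 and 184 CPM, and Ghr, the growth hormone receptor, at 18.5 ± 1.59 CPM against 571, 108 and 76.9 CPM. Tek, an angiopoietin receptor, was called too, but the 3 myotube libraries stood at 8.48, 0.261 and 0.601 CPM, and without the first of them the log2 fold change over myotubes was -0.96 and the call was lost.

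The Hippo pathway links cell contact to growth, and both of its co-activators were macrophage-low. Yap1 was at 38.8 ± 1.50 CPM (SD, n = 3) in macrophages against 101, 122 and 149 CPM in adipocytes, myotubes and hepatocytes, and Wwtr1, which encodes TAZ, at 18.0 to 20.1 CPM against 156, 439.6 and 66.6 CPM. Over the pathway list, 3 of 25 genes (12.0%) were macrophage-low and 1 (4.00%) was macrophage-high, beside 5.95% and 10.0% over all genes. Tjp1, a tight junction scaffold, was at 18.9 ± 2.55 CPM against 81.3, 170.3 and 233 CPM, and Pard3, a polarity protein, at 9.10 ± 1.02 CPM against 42.9, 109.7 and 115 CPM. Of 31 genes of caveolae and junctions 4 (12.9%) were macrophage-low and none macrophage-high, against the same 5.95% and 10.0%. Cav1, the main caveolin, stood at 53.8 ± 2.69 CPM in macrophages, between 1562 CPM in adipocytes and 1.58 CPM in hepatocytes.

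Extracellular matrix genes were not uniformly low in the macrophages. Of 44 genes, 34 were lower than in adipocytes, against 22.9% of all genes, and 30 were higher than in hepatocytes, against 26.8%. The 3 macrophage-high genes (6.82%) and 4 macrophage-low genes (9.09%) are near the 10.0% and 5.95% over all genes. The high ones were the proteases Mmp9, Mmp12 and Mmp13, with Mmp9 at 36.1, 36.8 and 30.0 CPM in macrophages and at or below 4.20 CPM in each other library. The low ones were Col18a1, Nid1, Agrn and Lum, and the first 3 encode components of basement membranes. Nid1, nidogen, was at 84.2 ± 5.72 CPM (SD, n = 3) against 954, 349 and 402 CPM. Collagen transcripts were present in the macrophage libraries: Col1a1 stood at 1386, 1316 and 1317 CPM, above the 712 to 867 CPM of myotubes and below the 3018 to 3561 CPM of adipocytes.

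**Figure D4:**
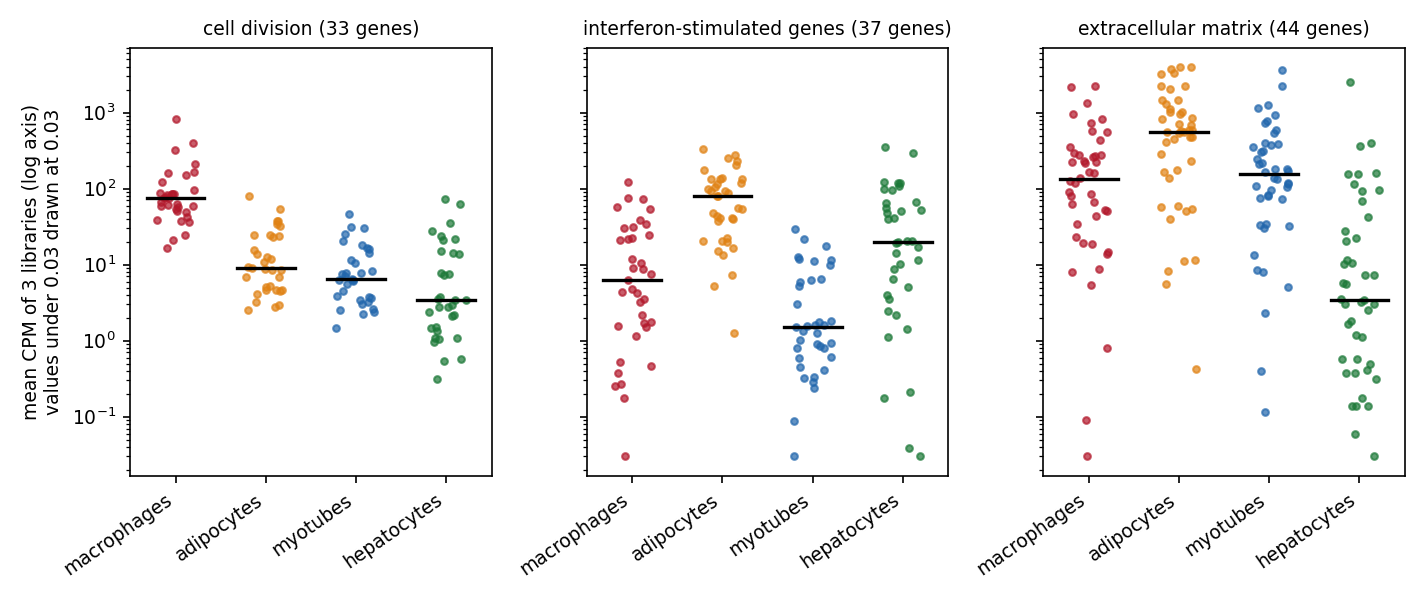
Levels of the listed genes of cell division, interferon response and extracellular matrix in the 4 groups, as mean CPM of 3 libraries on a log axis with values under 0.03 drawn at 0.03. Each point is 1 gene and each bar is the median, which for cell division was 74.2 CPM in macrophages and 3.38 to 9.14 CPM elsewhere, while for the interferon response macrophages at 6.33 CPM and for matrix macrophages at 132 CPM stood below adipocytes at 80.5 and 562 CPM.

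These matrix values stood beside markers of stromal cells. The list of fibroblast markers summed to 3374 to 3510 CPM in macrophages, 11010 to 12350 CPM in adipocytes, 2475 to 2955 CPM in myotubes and 29.6 to 34.4 CPM in hepatocytes. None of its 12 tested genes was macrophage-high, against 10.0% of all genes. All 12 were lower in macrophages than in adipocytes, against 22.9%, and 9 were higher than in hepatocytes, against 26.8%. The median over the 13 listed genes was 18.9 CPM in macrophages, 249.5 CPM in adipocytes, 32.2 CPM in myotubes and 1.27 CPM in hepatocytes. Under 1 CPM in macrophages were 4 of the 13, among them Lum, which had no count there. Thy1, a surface marker of fibroblasts, stood at 1.04 ± 0.282 CPM (SD, n = 3). The part of stromal cells in the matrix values was not tested.

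Markers of other blood cells were mostly at the limit of detection. The few that passed the filter and were called are given below, where 10.0% of all genes were macrophage-high and 5.95% macrophage-low. Of 14 neutrophil markers 4 passed the filter, and Csf3r and Mmp8 were macrophage-high (without a filter 7 were), with Mmp8 at 12.8 ± 0.307 CPM (SD, n = 3), while S100a8 was at 0.838 ± 0.205 CPM and Ly6g had no count. Csf3r passed through the macrophage libraries alone. Of 12 T and NK cell markers 2 passed, and Cd4, which myeloid cells can carry as well, was macrophage-high at 5.79, 5.87 and 5.17 CPM, while Cd3d and Cd3g had no count. Of 10 B cell markers 3 passed, and Cd22 was macrophage-high at 9.11 ± 0.592 CPM. Of 12 dendritic cell markers 3 passed, of which Cd83, an activation marker of dendritic cells, was macrophage-high at 28.2 ± 0.489 CPM and Zbtb46, the factor of classical dendritic cells, macrophage-low at 1.01 to 1.33 CPM. Of 12 erythroid and megakaryocyte markers, all under 1 CPM in macrophages, 3 passed and 1 was macrophage-low. Hemoglobin genes had no count, and no mast cell marker was called.

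Osteoclasts arise from the same precursors, and 4 of their 8 tested markers were macrophage-high, against 10.0% of all genes. Besides Atp6v0d2 and Mmp9 these were Nfatc1, the master factor of the lineage, and the proton pump subunit gene Tcirg1. The defining genes Ctsk and Acp5 were not: Ctsk stood at 18.4 ± 0.341 CPM (SD, n = 3) in macrophages and 73.0 ± 6.02 CPM in adipocytes, and Acp5 at 2.63 ± 0.652 CPM in macrophages and 152 ± 1.91 CPM in hepatocytes. Calcr, the calcitonin receptor, had no count.

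Markers of the 3 other cultures were low in macrophages. The adipocyte list summed to 201.6 to 204.5 CPM in macrophages against 12920 CPM or more in adipocytes, the myotube list to 7.64 to 19.0 CPM against 37820 CPM or more in myotubes, and the hepatocyte list to 154.2 to 160.7 CPM against 83190 CPM or more in hepatocytes. Fabp4, a fatty acid-binding protein of adipocytes that macrophages carry too, stood at 83.3 ± 2.91 CPM (SD, n = 3) in macrophages. Adipoq rested on 6 counts, Ckm, the muscle creatine kinase, on 7, and Alb on 22, all of them in the third library. Of 11 endothelial markers 9 were lower than in adipocytes, 8 higher than in myotubes and 8 lower than in hepatocytes, where 22.9%, 21.8% and 22.7% of all genes were. Of the same markers 1 (9.09%) was macrophage-low and 1 macrophage-high, near the 5.95% and 10.0% over all genes. The low one was Tek, whose call was lost without the first myotube library. The high one was Vwf, the von Willebrand factor, at 90.9, 85.7 and 88.0 CPM against 3.92, 3.50 and 0.236 CPM in adipocytes, myotubes and hepatocytes.

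**Figure D5:**
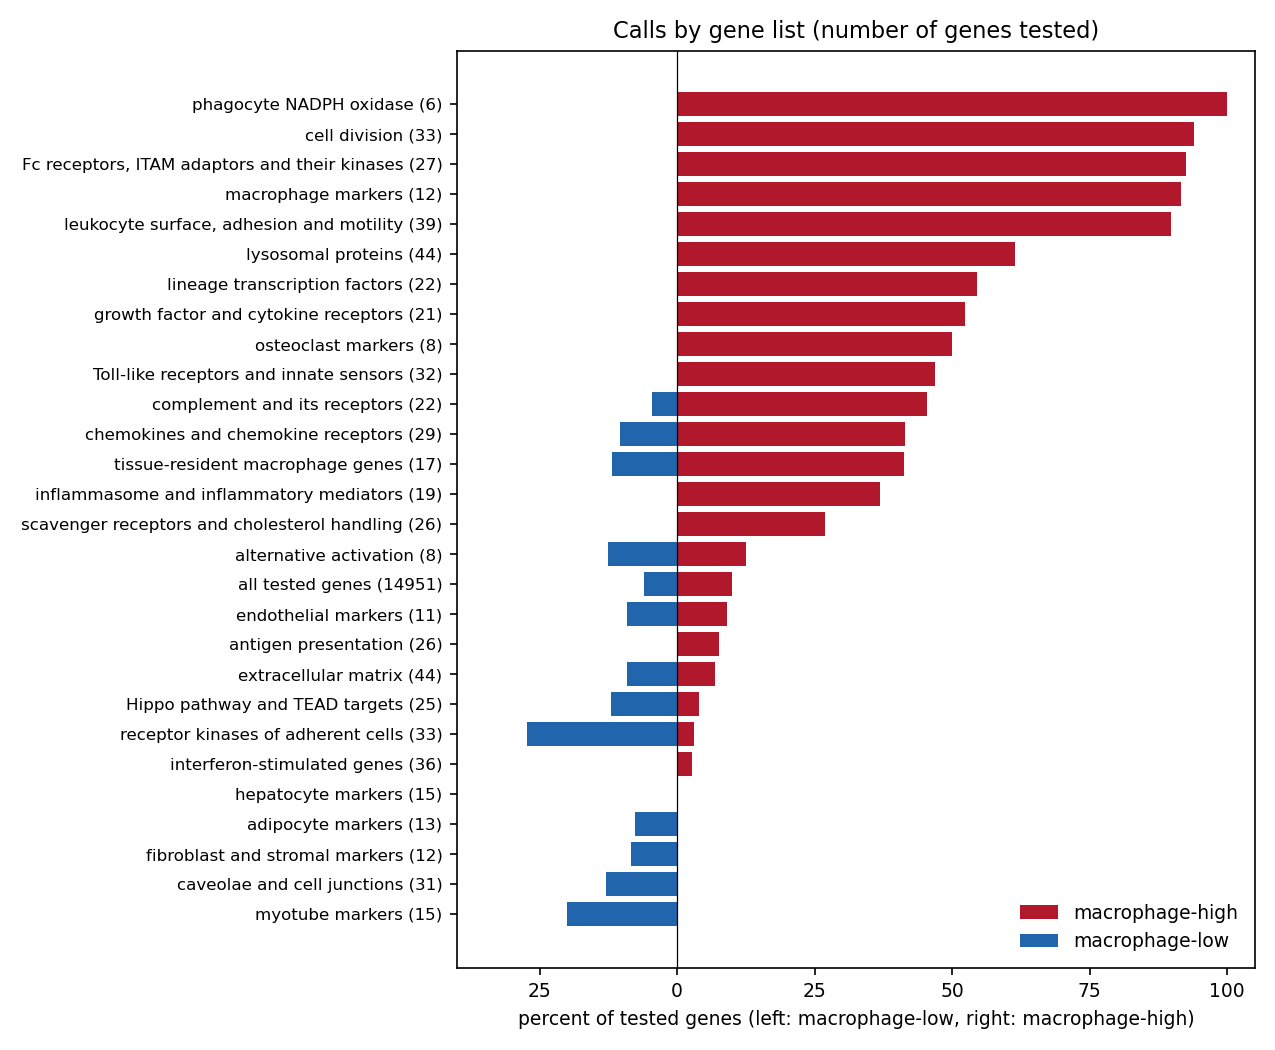
Percent of the tested genes of each list with at least 6 tested genes that were macrophage-high (to the right) or macrophage-low (to the left), with the number tested in brackets. The phagocyte oxidase, cell division, Fc receptor, macrophage marker and leukocyte surface lists have the longest bars to the right, against 10.0% over all tested genes, and receptor kinases of adherent cells have the longest bar to the left at 27.3%, against 5.95%.

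Some macrophage-high genes lay side by side in the genome. Along the order of tested protein-coding genes, 12 runs of at least 4 neighbours were all macrophage-high, and they held 55 genes. The SLAM receptor genes on chromosome 1 (GRCm38.p6, chr1:171559193-171898237) formed a run of 6 with Cd244a, Ly9, Slamf7, Cd48 and Cd84. A run of 5 C-type lectin genes lay at chr6:122952515-123289870, from Clec4a3 to Clec4e with Clec4d between them, at mean levels of 9.32 to 494 CPM in macrophages. Several of the other runs are families of similar genes, Fcgr, Cd300, Sirpb1 and the Pirb relatives, in which reads could be shared between neighbours.

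Promoter windows of RefSeq, from 250 bases before to 50 after the start site, were matched by symbol to 10287 of the 13868 tested protein-coding genes. CpG density, as the ratio of observed to expected CpG, had a median of 0.756 over all genes, 0.684 over macrophage-high and 0.689 over macrophage-low genes, and was 0.421 for macrophage-high and 0.442 for macrophage-low genes with a margin beyond 3. GAGGAAG was present in 13.4% of all windows, 19.8% of macrophage-high and 10.9% of macrophage-low windows. TATAAA was present in 7.64%, 6.62% and 7.85%, and CCAAT in 38.5%, 40.3% and 35.5%. These are shares of matching letters, with no test.

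The same features were counted in 3 lists, with no test. Of 25 leukocyte surface genes that were macrophage-high and had a window, 10 (40.0%) held GAGGAAG and 4 (16.0%) CCAAT, with a median CpG ratio of 0.268. Of 26 cell division genes, 21 (80.8%) held CCAAT and 4 (15.4%) GAGGAAG, with a median CpG ratio of 0.937. Of 20 lysosomal genes, 7 (35.0%) held GAGGAAG and 10 CCAAT, with a median CpG ratio of 0.429. Cd37 and Mki67 are shown as examples of the first 2 lists, each being the gene of largest margin in its list with the more frequent motif. The window of Cd37 lies at chr7:45238840-45239089 on the minus strand and holds GAGGAAG on the opposite strand of the gene, and that of Mki67 at chr7:135716380-135716629, also on the minus strand, holds CCAAT at 3 places, the middle one on the opposite strand. Capitals mark these letters in the 250 bases before each start site.
Cd37: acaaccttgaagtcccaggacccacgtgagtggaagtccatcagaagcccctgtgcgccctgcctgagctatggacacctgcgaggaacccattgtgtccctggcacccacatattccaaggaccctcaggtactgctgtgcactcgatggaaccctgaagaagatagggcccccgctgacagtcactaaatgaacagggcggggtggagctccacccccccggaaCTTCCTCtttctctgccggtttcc
Mki67: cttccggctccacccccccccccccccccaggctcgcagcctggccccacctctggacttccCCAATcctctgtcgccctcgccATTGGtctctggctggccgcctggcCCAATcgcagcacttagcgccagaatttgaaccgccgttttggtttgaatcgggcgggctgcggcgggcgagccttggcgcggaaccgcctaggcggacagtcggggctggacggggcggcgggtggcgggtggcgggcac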

How the data were processed

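RNA was reverse transcribed with random primers and sequenced on BGISEQ-500 as paired ends. Per the paper's methods and the submitters' processing notes, the authors quantified transcripts with Salmon 1.2.1 against the GENCODE annotation of GRCm38.p6 and summed them to genes, and the deposited values are estimated counts per gene. They were rounded to whole numbers here. Total counts were 18556853 to 23180421 in the 12 control libraries, and the TMM factors were 0.8792 to 1.066.

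Samples were grouped by the labels. The filter kept genes above 1 CPM in 3 or more control libraries, and these were compared with the quasi-likelihood test of edgeR 4.0.16 in R 4.3.3 (TMM scaling, 1 mean per group, Benjamini-Hochberg adjustment over 14951 genes), after a test on simulated data in which 100% of the changed genes were recovered at each of log2 changes -3, -2, 2 and 3. The simulation changed 50 genes per size in macrophages only, with equal means in the other groups. It does not speak to calls near the threshold of 1. CPM levels are on the TMM scale, errors are SD over 3 libraries or SE of the fit, and a fold against a group without counts is a bound from the floor of 3 counts over that group. Alternatives were DESeq2 1.42.0, limma 3.58.1 on the voom scale, other scalings, filters, fold thresholds and samples. Named genes are the 4 markers, the 15 macrophage-high genes of largest margin at 10 CPM or more in macrophages, the 10 macrophage-low genes of largest margin at 10 CPM or more in every other group, the 10 genes highest per kilobase, leading, opposite and near-absent members of 33 lists, the 23 pairs and the runs of neighbours. Members of lists that were named to show a missed call or a level (such as Lamp1, Cebpa, Apoe, Cd36, B2m, Irf7, Ifit1 and Col1a1) were chosen after their values were seen. Some genes that these rules name are not reported here. The members and lists were chosen with earlier results of these data known. Treated libraries entered only as an alternative. Coordinates are those of RefSeq and GENCODE on GRCm38.p6. Of 1029 promoter starts checked, 848 (82.4%) were found within the first 1000 bases of a transcript, which is not a match to its exact start.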

Additional observations from a re-analysis of the deposited data

How the results depend on the processing

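The count of macrophage-high genes ranged from 1474 (DESeq2) to 1785 (no filter on low counts, 28100 genes tested) and that of macrophage-low genes from 805 (scaling by library totals) to 933 (no filter) over the tests, scalings, filters and sample choices tried. Of the 1500 macrophage-high genes, 1474 to 1500 were also called under DESeq2, limma, the other scalings, both other filters, the model of all 36 libraries and the replicate block, and 1430 with the libraries treated with the ketone body bOHB in place of the controls. Of the 889 macrophage-low genes, 805 to 889 were also called under the same settings and 745 with the bOHB libraries. Leaving out each library in turn gave 1485 to 1503 macrophage-high and 868 to 894 macrophage-low genes. Scaling by library totals moved the median log2 fold change over hepatocytes of all genes to 0.25, and the share of higher among called genes from 54.2% to 61.4%.

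The fold threshold set the counts most. Beyond 0 there were 5689, 5912 and 6295 genes higher and 6007, 6491 and 6126 lower than in adipocytes, myotubes and hepatocytes, and 3108 macrophage-high and 2427 macrophage-low. Beyond 2 there were 1480, 1787 and 2627 higher and 1974, 2461 and 1967 lower, and 846 macrophage-high and 397 macrophage-low. The summed marker level in hepatocytes was 1.32% of the macrophage mean on library totals. For genes with a margin beyond 3, the CpG ratio was 0.421 for macrophage-high and 0.442 for macrophage-low genes, GAGGAAG was found in 24.9% of high windows, TATAAA in 10.0% of high and 18.2% of low windows, and CCAAT in 28.7% of low windows. With the bOHB libraries, 1 difference of a low gene turned sign, that of Mb over hepatocytes at 0.89, and the cause was not tested. Antigen presentation then had 6 macrophage-high genes, and without a filter the neutrophil list had 7. Over the genes of the naming rules, of which some are not described above and those not reported here are left out, 13546 results kept direction and call and 31 kept direction and lost the call, among them those of Tek, Nox4, Vsig4, Tnnc2 and Alox5.

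The replicate numbers do not pair the libraries: deviations from group means correlated at -0.045 to 0.043 between libraries of the same number and at -0.057 to 0.065 otherwise. A fit with the replicate number as a block gave 1502 macrophage-high and 880 macrophage-low genes. Genes at a few counts, such as Cxcl1, are limited by depth.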
